A study of Arabidopsis thaliana with 12 samples.

Results

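AOP3 (AT4G03050) and AT2G25450 are 2 genes of Arabidopsis thaliana that encode 2-oxoglutarate-dependent dioxygenases acting on the side chains of glucosinolates. They were chosen by their gene identifiers, and because their log2 ratios after induction of HANABA TARANU were already known to be large and of opposite sign. Each had 1 probe, so 2 of the 26090 gene probes on the array stood for them, and they are 2 of the 10654 named loci among 18125 features tested. The values that chose them are the ratios at each time point, so these are described here with their spread and are not tested. Tests are given for other genes of the pathway, for genes that lie beside the pair in the genome, and for the effect of the dye.

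Glucosinolates are sulfur- and nitrogen-containing defence compounds of the cabbage order, made from amino acids. For the methionine-derived ones the amino acid is first lengthened, the core structure is then built with its sugar and sulfate, and the side chain is modified last. Transporters move the finished compounds, and myrosinases release toxic breakdown products from them when tissue is damaged. AOP3 converts methylsulfinylalkyl glucosinolates to hydroxyalkyl glucosinolates, while its neighbour AOP2 makes alkenyl glucosinolates from the same substrate. AT2G25450 is the gene known for adding a hydroxyl group to the butenyl side chain, a product of AOP2. Arabidopsis accessions differ in which of AOP2 and AOP3 they express, and Landsberg erecta is known to express AOP3 in leaves.

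The 12 arrays each compared RNA of treated and mock-treated plants from 1 time point. All plants had Landsberg erecta as background and carried 35S:HAN-GR, in which the constitutive viral 35S promoter drives a fusion of HAN, a GATA-type transcription factor, to a steroid receptor domain that keeps the protein out of the nucleus until dexamethasone (Dex) is given. Groups differed in time after 10 µM Dex, at 4, 12 or 72 h, with 4 arrays each that are labelled as biological replicates; mock-treated plants carried the fusion too. The tissue was inflorescences with flower buds of stages 1 to 9, with no age, number of plants per sample or number of independent lines given in the labels, and arrays from 0 h or from Dex-treated plants without the fusion are not analysed here. Effects of Dex itself and of HAN-GR cannot be told apart. In such bulk tissue, fewer cells that express a gene and less RNA per cell cannot be told apart either.

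Values are log2 ratios as the authors deposited them, centred on the median of each array, and are differences between the channels of an array, not expression levels. Their direction is not settled. The correlation between arrays of 1 time point across tested features was above 0 for every pair, with r of 0.179 to 0.643 (4 h), 0.393 to 0.730 (12 h) and 0.061 to 0.506 (72 h). With values at the deposited limits kept, however, the pairs of the same labelled dye at 4 h correlated at -0.821 and -0.812 over all gene probes. The limit values of 4 h replicates 1 and 3 lay on the side opposite to that of the other arrays of their labelled dye, on 2 of 12 arrays in all. The ratios are read here as Dex over mock, which is an assumption, since which channel is on top is not given. Nothing in the labels says whether these separately labelled samples were also grown apart, so p-values measure the spread between arrays. With the sign turned, each "lower" below becomes "higher" and each "higher" becomes "lower". That AOP3 and AT2G25450 lay on opposite sides of 0 does not depend on the sign.

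AOP3 was lower in Dex-treated than in mock-treated inflorescences on all 12 arrays, those 2 included, and without those 2 its 4 h mean was -1.56. At 4 h its log2 ratio was -1.08, -1.36, -1.21 and -1.76 on replicates 1 to 4. The mean of -1.35 ± 0.30 (SD, n = 4) was a 2.55-fold difference. At 12 h the values were -2.60, -3.48, -3.30 and -3.31, with replicate 1 nearest to 0. No 12 h array overlapped the 4 h arrays, and the mean of -3.17 ± 0.39 was a 9.03-fold difference. At 72 h the values were -2.90, -3.62, -3.66 and -3.75, and replicate 1 was again the one nearest to 0. The 72 h mean was -3.48 ± 0.39, an 11.2-fold difference, and the 72 h arrays overlapped those of 12 h. The order of the time points was thus 72, 12 and 4 h from lowest to highest, with 72 and 12 h overlapping and 4 h apart from both. Between 4 and 12 h the mean changed by -1.82 (SE of the fit 0.25), and between 12 and 72 h by -0.31 (SE 0.25).

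AT2G25450 was higher in Dex-treated inflorescences on all 12 arrays, and without 4 h replicates 1 and 3 its 4 h mean was 1.21. Its log2 ratio at 4 h was 1.97, 0.93, 1.52 and 1.49 on replicates 1 to 4. Replicate 1 was the highest and replicate 2 the lowest, and the mean of 1.48 ± 0.42 (SD, n = 4) was a 2.79-fold difference. At 12 h it was 2.48, 3.29, 2.72 and 3.10, all above the 4 h arrays. The 12 h mean was 2.90 ± 0.37, a 7.46-fold difference. At 72 h the values were 1.04, 2.17, 1.59 and 1.87, all below the 12 h arrays and within reach of the 4 h arrays. The 72 h mean was 1.66 ± 0.48, a 3.17-fold difference. The ratio was therefore highest at 12 h, while 4 and 72 h did not differ beyond their spread. The mean changed by 1.42 (SE 0.29) from 4 to 12 h and by -1.23 (SE 0.29) from 12 to 72 h.

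**Figure D1:**
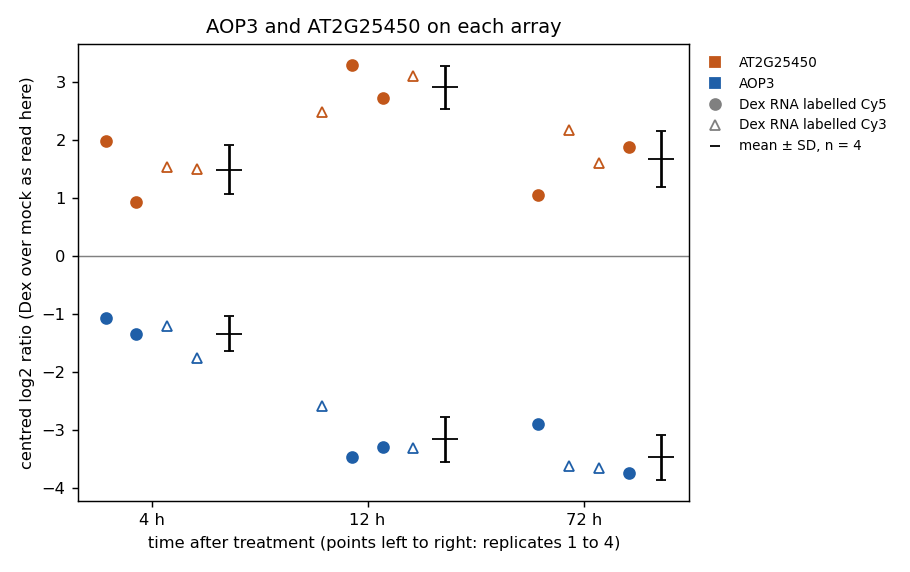
Centred log2 ratio of AOP3 (blue) and AT2G25450 (orange) on each of the 12 arrays, by time point in hours, with filled circles for arrays with Dex RNA in Cy5, open triangles for Cy3, and black bars for the mean ± SD (n = 4). AT2G25450 lies above 0 and AOP3 below 0 on all 12 arrays; AT2G25450 is highest at 12 h, at 2.90, and AOP3 lies at -3.17 at 12 h and -3.48 at 72 h.

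Both genes sit on the same array, so the difference between them is free of the centring. AT2G25450 minus AOP3 was 3.04, 2.29, 2.73 and 3.25 at 4 h, a mean of 2.83 ± 0.42 (SD, n = 4). At 12 h it was 5.08, 6.77, 6.02 and 6.42, with a mean of 6.07 ± 0.73. At 72 h it was 3.93, 5.78, 5.25 and 5.62, with a mean of 5.15 ± 0.84. The gap was thus wider at 12 h than at 4 h on every array, and the 72 h arrays overlapped those of 12 h and not those of 4 h. On the linear scale the ratio of AT2G25450 was 7.11, 67.3 and 35.4 times that of AOP3 at the 3 time points. These are ratios of 2 responses and say nothing of which transcript was more abundant.

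Among the 18125 features, AOP3 had the 264th lowest mean at 4 h, the 2nd lowest at 12 h and the 9th lowest at 72 h. AT2G25450 had the 69th highest at 4 h, the 4th highest at 12 h and the 185th highest at 72 h. Both thus moved from the tails to the edge of the distribution between 4 and 12 h, and AT2G25450 moved back at 72 h. Their spread between arrays was larger than that of a typical feature: the median SD of all features was 0.21, 0.19 and 0.34 at the 3 time points, against 0.30 to 0.48 for the pair.

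**Figure D2:**
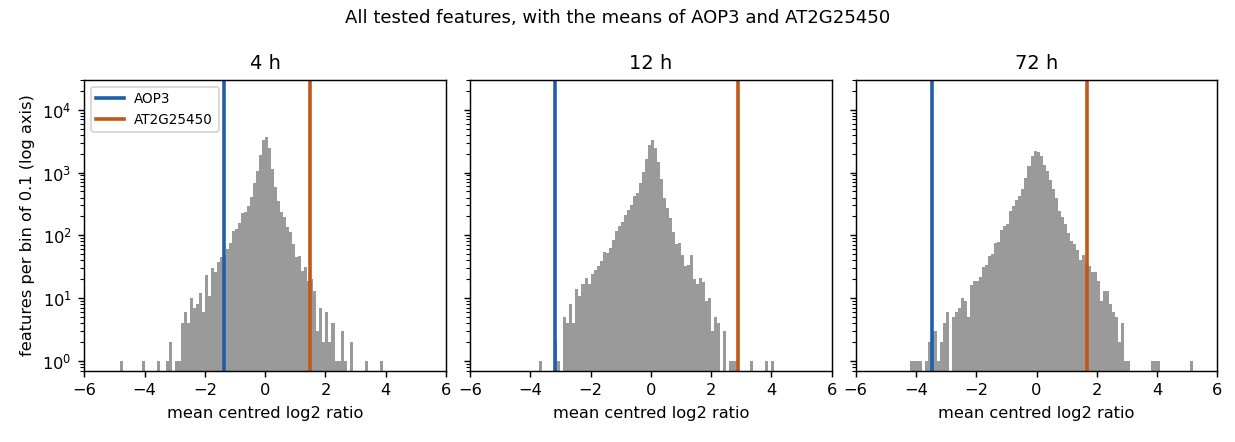
Number of the 18125 tested features in bins of 0.1 of the mean centred log2 ratio (vertical axis on a log scale) at 4, 12 and 72 h, with vertical lines at the means of AOP3 (blue) and AT2G25450 (orange). AOP3 has the 2nd lowest and AT2G25450 the 4th highest mean at 12 h.

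Neither gene passed the test of the labelled dye. For AOP3 the mean of the arrays with Dex in Cy5 and of those with Dex in Cy3 was -1.22 and -1.49 at 4 h, -3.39 and -2.96 at 12 h, and -3.32 and -3.64 at 72 h. For AT2G25450 these means were 1.45 and 1.51, 3.01 and 2.79, and 1.45 and 1.88. Cy5 minus Cy3 was 0.05 (SE 0.21; limma adjusted p = 0.94) for AOP3 and -0.09 (SE 0.24; adjusted p = 0.91) for AT2G25450. No feature passed on the dye term in the limma fit (0% of all features, with 1334 at an unadjusted p under 0.05). This term was taken from the labels, which the limit values of 4 h replicates 1 and 3 did not match. It therefore cannot show that dye effects were absent. With the dye taken from the side of the limits, 2346, 3306 and 4419 features passed for Dex over mock at 4, 12 and 72 h. With the labelled dye these were 2009, 2867 and 3758. The dye effect on the pair under the other coding is not given here.

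Of 74 other glucosinolate loci listed, 10 had a named probe and 8 were tested, so most of the pathway is not analysed here. At 4 h, 3 of the 8 passed the test, 1 higher and 2 lower (11.1% of all features passed, 4.21% higher and 6.87% lower). At 12 h 4 passed, all lower (15.8% of all features, 5.34% higher and 10.5% lower), and at 72 h 5 passed, 1 higher and 4 lower (20.7%, with 9.88% higher and 10.9% lower). With the sign turned these are 2 higher and 1 lower, 4 higher, and 4 higher and 1 lower. The median log2 ratio of the 8 was -0.08, -0.59 and -0.48 at the 3 time points, against 0.00, 0.01 and 0.00 over all features. With the 72 h arrays fitted alone, 1 of the 8 passed at 72 h.

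AOP1, the relative of AOP3 that lies next to AOP2 in the same tandem cluster and whose own product is not established, was the one other side-chain gene measured. Its log2 ratio was 0.48, 0.41, 0.29 and 0.65 at 4 h, 0.19, -0.07, 0.04 and 0.06 at 12 h, and 0.35, 0.55, 1.13 and 0.35 at 72 h. It was thus on the side opposite to AOP3 at 4 and 72 h and near 0 at 12 h. AOP1 was higher at 4 h (0.46 ± 0.15, SD, n = 4; limma adjusted p = 0.025) and at 72 h (0.59 ± 0.37; adjusted p = 0.0041), but not at 12 h (0.06 ± 0.11; adjusted p = 0.85). The call at 4 h was lost under 7 of 22 alternatives, among them without 4 h replicates 1, 2 or 4 (adjusted p = 0.11, 0.12 and 0.12) and with a replicate block (0.081), and the call at 72 h with those arrays fitted alone (0.14). No probe used here was named AOP2, a transcribed pseudogene in the Columbia reference. The probe sequences were not used here, so hybridisation of AOP2 or AOP1 RNA to the AOP3 probe was not tested.

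All 3 core-structure genes tested were lower at 12 h, as were 10.5% of all features. GSTU20, a glutathione transferase of methionine-derived glucosinolate synthesis, was at -0.90, -0.96, -0.81 and -0.93 at 4 h, at -1.63, -2.05, -2.21 and -2.24 at 12 h, and at -1.64, -1.26, -0.71 and -1.94 at 72 h. All 12 arrays were below 0, and none at 12 h overlapped those at 4 h. Its means were -0.90 ± 0.06, -2.03 ± 0.28 and -1.39 ± 0.53 (SD, n = 4 each; limma adjusted p = 0.0022, 9.4e-06 and 1e-04), which is 1.87-fold, 4.09-fold and 2.62-fold. These calls held under all 22 alternatives. UGT74B1, the glucosyltransferase that adds the sugar to the core, was not different at 4 h (0.18 ± 0.50; limma adjusted p = 0.71), with 2 arrays above and 2 below 0. It was lower at 12 h (-1.38 ± 0.26; adjusted p = 0.00039) and at 72 h (-0.83 ± 0.33; adjusted p = 0.0082), on 4 of 4 arrays each. AT2G31790, listed here among the core genes, was at -0.01 ± 0.22, -0.81 ± 0.28 and -0.20 ± 0.14, and passed at 12 h (limma adjusted p = 0.00092). The call of UGT74B1 at 72 h was lost with those arrays fitted alone (adjusted p = 0.063).

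The response of these 3 core genes moved down between 4 and 12 h. The difference was -1.13 (SE 0.21; limma adjusted p = 0.023) for GSTU20, -1.56 (SE 0.25; adjusted p = 0.014) for UGT74B1 and -0.81 (SE 0.17; adjusted p = 0.037) for AT2G31790. So 3 of the 8 genes passed this test, all downward, where 2.43% of all features passed and 1.4% downward. With array weights AOP1 passed it too, downward (-0.42, limma adjusted p = 0.0066). From 12 to 72 h 0 of the 8 passed in limma, and 4 had an unadjusted p under 0.05. Of all features 4.14% passed, 2.74% upward, and 3420 of 18125 had an unadjusted p under 0.05. With array weights 3 of the 8 passed from 12 to 72 h, AT2G31790 (0.0080), AOP1 (0.016) and the transporter gene GTR2 (0.048). The share of all features is not given here for that setting, which raised the features passed at 12 h from 2867 to 6820. From 12 to 72 h AT2G31790 also passed without 12 h replicate 1 (0.026), and GTR2 without 72 h replicate 4 (0.039) or without a dye term (0.050). With the replicate number as a block 1 of the 8 passed downward from 4 to 12 h, GSTU20 (adjusted p = 0.042), while UGT74B1 (0.060) and AT2G31790 (0.086) did not, and 0.866% of all features passed. The downward calls also depended on single arrays. Without 4 h replicates 1, 2 or 3 the adjusted p of GSTU20 was 0.057, 0.079 and 0.051, and without 12 h replicates 2, 3 or 4 it was 0.058, 0.081 and 0.083. That of UGT74B1 was 0.053 without 4 h replicate 2 and 0.056, 0.058 and 0.063 without 12 h replicates 2, 3 and 4. That of AT2G31790 was 0.086, 0.12 and 0.093 without 4 h replicates 1, 2 and 3, 0.12, 0.12 and 0.13 without 12 h replicates 2, 3 and 4, and 0.060 without 72 h replicate 4. Without both 4 h replicates 1 and 3 it was 0.14 for GSTU20, 0.062 for UGT74B1 and 0.23 for AT2G31790.

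BCAT4, the aminotransferase that starts the lengthening of methionine, had a value on all arrays at 4 and 12 h but on only 2 at 72 h, and was not tested. At 4 h it was at 0.31, -0.28, -0.28 and -0.29. At 12 h it was at -3.31, -2.46, -2.68 and -2.88, below every 4 h array. At 72 h replicates 3 and 4 were at -0.51 and -1.45, and replicates 1 and 2 sat at opposite limits. Whether BCAT4 differs between 4 and 12 h was not tested. CYP79A2, of phenylalanine-derived glucosinolates, had no value within the limits at 4 h and was at 0.46, -0.77, -0.27 and -0.42 at 12 h. Both were left without a test by the missing arrays.

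Of the 2 glucosinolate importers, GTR2 was lower at each time point. GTR2 was at -1.01, -1.21, -1.04 and -1.55 at 4 h, at -1.58, -1.62, -1.67 and -1.67 at 12 h, and at -0.52, -0.45, -1.07 and -1.32 at 72 h. Its means of -1.20 ± 0.25, -1.63 ± 0.04 and -0.84 ± 0.42 (SD, n = 4 each) were 2.30-fold, 3.10-fold and 1.79-fold lower (limma adjusted p = 0.00039, 3.3e-05 and 0.0025). GTR1 did not pass, at 0.25 ± 0.37, 0.14 ± 0.29 and 0.40 ± 0.20 (adjusted p = 0.39, 0.64 and 0.071). Whether GTR1 and GTR2 differ from each other was not tested. Without 4 h replicate 3, GTR1 passed at 4 h (limma adjusted p = 0.035) and 72 h (0.018), at 72 h also with array weights (0.016), with the dye taken from the side of the limits (0.025) and without both 4 h replicates 1 and 3 (0.026), and GTR2 did not pass at 72 h with those arrays fitted alone (0.13).

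Of the regulators, the basic helix-loop-helix factors MYC3 and MYC4, which act with MYB factors on glucosinolate genes, were measured. MYC4 had means of -0.16 ± 0.09, -0.36 ± 0.40 and -0.59 ± 0.31 at the 3 time points (SD, n = 4), and was lower at 72 h (limma adjusted p = 0.020). MYC3 was at -0.15 ± 0.13, -0.23 ± 0.23 and -0.37 ± 0.39 and did not pass (adjusted p = 0.69, 0.36 and 0.088). With array weights both passed at 12 h, MYC3 at an adjusted p of 0.021 and MYC4 of 0.0072. The call of MYC4 was lost without 72 h replicates 2, 3 or 4 (adjusted p = 0.059, 0.084 and 0.060) and with the 72 h arrays alone (0.13). None of the 6 MYB genes listed and none of the 17 genes of glucosinolate breakdown had a named probe.

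**Figure D3:**
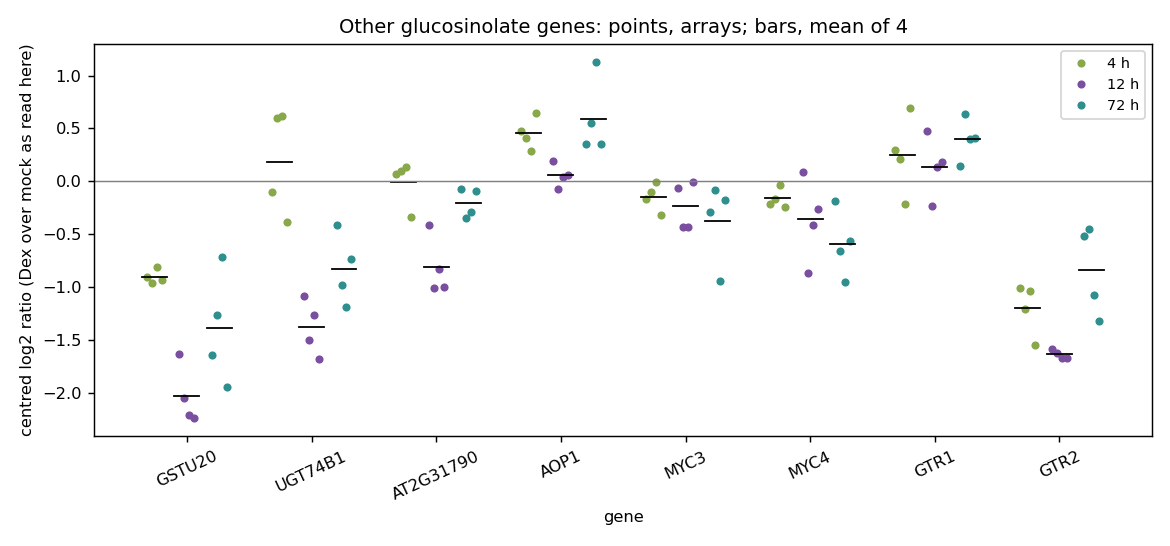
Centred log2 ratio of the 8 other glucosinolate genes tested, at 4 h (green), 12 h (purple) and 72 h (teal), with 1 point per array and a bar at the mean of 4 arrays. GSTU20 and GTR2 lie below 0 on all arrays of each time point, UGT74B1 and AT2G31790 lie below 0 on all 12 h arrays, and AOP1 lies above 0 on all 4 h and 72 h arrays.

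Glucosinolate synthesis draws on sulfate assimilation, for which 4 of 21 listed loci were tested. At 4 h 0 passed the limma test (11.1% of all features did), and 0 had an unadjusted p under 0.05. At 12 h 1 was lower (10.5% of all features were), and at 72 h 1 was higher (9.88% of all features were). AT1G04770, of the list of sulfur-deficiency genes, had means of 0.20 ± 0.19, -0.30 ± 0.24 and 1.07 ± 0.29 at the 3 time points (SD, n = 4). Its 72 h values of 0.75, 1.26, 1.37 and 0.91 all lay above those of the earlier time points. It was 2.1-fold higher at 72 h (limma adjusted p = 0.00016), and the difference between 72 and 12 h was 1.38 (SE 0.17; adjusted p = 0.0030). The ATP sulfurylase gene APS3, of the first step of sulfate assimilation, was lower at 12 h (-0.50 ± 0.20; limma adjusted p = 0.016). That call was lost without 12 h replicates 1, 3 or 4 (adjusted p = 0.083, 0.095 and 0.086). APS4, another ATP sulfurylase gene, was at 0.05 ± 0.14, 0.32 ± 0.20 and 0.20 ± 0.24, and did not pass except with quantile normalisation (0.034), array weights (0.00091) or without 72 h replicate 3 (0.039), all at 12 h. SIR, the sulfite reductase gene, was at 0.26 ± 0.21, -0.11 ± 0.07 and -0.28 ± 0.48. SIR passed with array weights at 4 h (0.016) and without 72 h replicate 2 at 72 h (0.048).

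The tested genes beside the pair in the TAIR10.1 gene order had means nearer to 0 than those of the pair. The pair was chosen for its large ratios, so the same would hold for most genes, wherever they lie. Of the 5 protein-coding genes on each side of AOP3, 8 had a named probe and 6 were tested. Apart from AOP1, whose values are given above, these were AT4G03000, AT4G03010, AT4G03020, AT4G03090 and AT4G03100, and 0 of these 5 passed the limma test at any time point (2 had an unadjusted p under 0.05, both at 72 h). Of all features 11.1%, 15.8% and 20.7% passed at 4, 12 and 72 h, and 6185 of 18125 had an unadjusted p under 0.05 at 72 h. With so few genes, 0 of 5 is not far from these shares. The means of the 5 lay between -0.40 and 0.20, with AT4G03100 lowest at 72 h (-0.40 ± 0.31; adjusted p = 0.076). AT4G03010 passed at 72 h without a dye term (0.048), with the dye taken from the side of the limits (0.047), with array weights (0.0059) and without 72 h replicate 2 (0.023). AT4G03020 passed at 72 h with array weights (0.027) and without 72 h replicate 3 (0.018). The remaining 2 neighbours with a probe were not tested. AT4G03040, the gene next to AOP3 on its other side, sat at a limit on 11 arrays and was at -4.12, before centring, on the other one. AT4G03030 sat at a limit on 8 arrays and ranged from -2.65 to 4.88, also before centring, on the other 4.

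Beside AT2G25450, 3 of 10 neighbours were tested. AT2G25460, the next gene, was at 0.88, 0.96, 0.67 and 1.59 at 4 h, below AT2G25450 on replicates 1 and 3 and above it on replicates 2 and 4. It was 2.04-fold higher at 4 h (1.03 ± 0.40, SD, n = 4; limma adjusted p = 0.00094), and lay at 0.14 ± 0.38 at 12 h and -0.11 ± 0.20 at 72 h (adjusted p = 0.67 and 0.62). The 4 h call was lost with those arrays fitted alone (0.052). Where AT2G25450 was highest, at 12 h, this neighbour was near 0. The change of AT2G25460 from 4 to 12 h was -0.89 (SE 0.21, limma adjusted p = 0.052). It passed without 4 h replicate 3 (0.023) or 72 h replicate 3 (0.032). It also passed with quantile normalisation (0.048), array weights (0.00092) and the dye taken from the side of the limits (0.026). AT2G25430 was at 0.42 ± 0.17 at 4 h (adjusted p = 0.031), a call lost under 9 of 22 alternatives, among them without 4 h replicates 1, 2 or 3 (0.064, 0.19 and 0.12), 12 h replicates 3 or 4 (0.051 and 0.052) and 72 h replicate 4 (0.051), and with a replicate block (0.10). AT2G25480 was at -0.02 ± 0.14, 0.03 ± 0.16 and 0.02 ± 0.27 and did not pass.

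**Figure D4:**
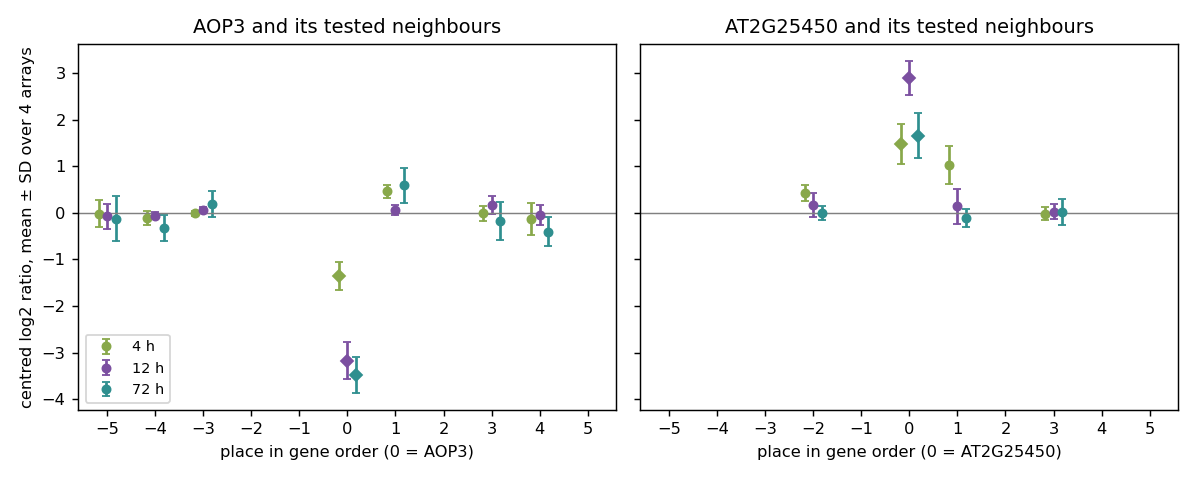
Mean centred log2 ratio ± SD (4 arrays) of AOP3 and of AT2G25450 (diamonds, place 0) and of the tested genes up to 5 places to either side in gene order (circles), at 4 h (green), 12 h (purple) and 72 h (teal). AOP3 reaches -3.48 while its tested neighbours have means between -0.40 and 0.59, and AT2G25450 reaches 2.90 at 12 h while its neighbours are highest at 4 h, at 1.03. AOP3 and AT2G25450 were chosen for their large ratios.

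The named genes most like AOP3 over the 12 arrays, by Pearson's r of the centred log2 ratios among 10637 named loci, were AT4G24140 (r = 0.980), AT3G53100 (0.975), AT4G24350 (0.948), AT4G18970 (0.941) and AT4G30170 (0.939). Likeness in shape did not mean likeness in size. AT4G24140 was at 0.06 ± 0.10, -0.79 ± 0.20 and -0.89 ± 0.12 (SD, n = 4) at the 3 time points, and AT4G18970, the nearest in size, at -1.03 ± 0.20, -2.24 ± 0.20 and -2.02 ± 0.20. The most opposite were AT5G59760 (r = -0.952), AT2G43590 (-0.950) and the U-box gene PUB25 (-0.949), and AT2G43590 lay at -0.16 ± 0.40, 1.51 ± 0.39 and 1.75 ± 0.75. The arrays of a time point share their treatment, so the 12 points are not independent.

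For AT2G25450 the most alike were AT1G03650 (r = 0.944 over 11 arrays), AT3G09550 (0.921 over 11 arrays), NDB3 (0.910), AT5G54550 (0.893) and AT1G63660 (0.892). All 5 had their highest mean at 12 h, with AT5G54550 at -0.06 ± 0.11, 1.1 ± 0.41 and 0.19 ± 0.33 (SD, n = 4) and NDB3, a mitochondrial NAD(P)H dehydrogenase gene, at -0.35 ± 0.21, 0.57 ± 0.48 and -0.52 ± 0.22. None came near the 2.90 of AT2G25450 at 12 h. The most opposite were AT1G60060 (r = -0.881), the cytochrome gene ACYB-2 (-0.879) and the cytochrome P450 gene CYP71B20 (-0.877). CYP71B20 was at -0.33 ± 0.10, -1.24 ± 0.23 and -0.50 ± 0.06. AOP3 and AT2G25450 themselves had r = -0.481. Of the other glucosinolate genes, UGT74B1 had the highest r with AOP3 (0.833) and AT2G31790 the lowest with AT2G25450 (-0.871). Others had an r near 0, with AOP3 for GTR1 (-0.114), GTR2 (0.052) and AOP1 (0.058), and with AT2G25450 for MYC3 (0.047).

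Ratios hold no levels, so the labelled tissue could not be checked against its markers beyond their being measured. Of the floral meristem markers 2 of 8 were tested, UFO at 0.06 ± 0.31, -0.10 ± 0.11 and 0.13 ± 0.14 (SD, n = 4) and CLV3, with 3 arrays a time point, at 0.14 ± 0.39, -1.09 ± 0.38 and -1.04 ± 2.41, and neither passed the limma test (0 had an unadjusted p under 0.05). CLV3 was at -1.36, -0.65 and -1.24 on 12 h replicates 1, 2 and 4. It passed at 12 h without 72 h replicate 2 (0.029) and with each time point fitted alone (0.0056). Of 5 green-tissue markers 2 were tested, and LHCB4.1 was lower at 12 h (-1.1 ± 0.69; limma adjusted p = 0.016) and PORB at 72 h (-0.67 ± 0.21; adjusted p = 0.0047). Of the 6 anther and pollen markers 3 were tested. AMS (-0.67 ± 0.23) and EMS1 (-0.63 ± 0.35) were lower at 72 h (limma adjusted p = 0.00047 and 0.0065). SPL, the other one tested, was at 0.22 ± 0.14, -0.02 ± 0.20 and -0.10 ± 0.04 and did not pass (adjusted p = 0.18, 0.95 and 0.50). INO, the 1 ovule marker tested of 3, was lower at 72 h (-0.84 ± 0.22, adjusted p = 0.00089). Of all features 10.5% were lower at 12 h and 10.9% at 72 h. The call of LHCB4.1 was lost without 12 h replicates 1, 2 or 4 (0.072, 0.079 and 0.078). At each time point its arrays with positive limit values lay above those with negative ones. With the dye taken from the side of the limits, LHCB4.1 passed at 72 h too (-0.48, limma adjusted p = 0.0066). It then also passed between 4 and 12 h (0.0050) and between 12 and 72 h (0.035). Without both 4 h replicates 1 and 3 it passed at 72 h (0.018). INO also moved between 12 and 72 h (adjusted p = 0.039), a call lost under 13 of 21 alternatives. AMS was lower at 12 h too (-0.36 ± 0.05; adjusted p = 0.018), except without 12 h replicates 1, 2 or 3 (0.056, 0.092 and 0.12), and PORB passed at 12 h without 12 h replicate 1 (0.046) and INO at 4 h without 4 h replicate 3 (0.044) or with array weights (0.0047). With the 72 h arrays fitted alone, AMS (0.082), EMS1 (0.18), INO (0.064) and PORB (0.11) all lost their 72 h call. EMS1 also lost it with the limit values kept (0.79), and PORB with array weights (0.053). The 4 phloem markers had no named probe. Among these markers, those that passed at 12 or 72 h had mean log2 ratios nearer to 0 than AOP3. AOP3 was chosen for its large ratios, so the same would hold for most genes. CLV3, which did not pass, was at -3.76 on 72 h replicate 2, where AOP3 was at -3.62. The part of the markers in the values of AOP3 and of the other glucosinolate genes was not tested.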

How the data were processed

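The authors deposited log2 ratios of the channels of each of the 12 oligonucleotide arrays. How these were background-corrected, normalized and centred, and which channel is on top, is not given. Per the labels' protocols RNA was amplified by in vitro transcription before dye coupling. Values at the deposited limits of ±6.644 are bounds and were set missing. Of 26090 gene probes, 13960 had 1 name in the platform annotation, 0 had several and 12130 had none; 13912 matched the TAIR10.1 gene table by gene ID. Probes of a locus were averaged, and a feature was tested with values on at least 3 of 4 arrays at each time point. Arrays were centred on their median over the 18125 tested features.

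All 12 arrays entered 1 limma fit (version 3.58.1, R 4.3.3) that estimated each time point's mean beside a dye effect taken from the labels. Tests were two-sided, with Benjamini-Hochberg adjustment over all features and a threshold of 0.05; the procedure was tested on simulated data. No column was without a sample (0). For arrays, precision is limited by how many there are. Same-numbered arrays of 4 and 12 h deviated together from their time point's mean (4 pairs, r 0.184 to 0.318), so values blocked by number stand beside that difference. Differently numbered arrays with limit values on the same side did so too (r 0.192 to 0.302). Pairing by number was therefore not shown. Same-numbered pairs with 72 h arrays did not deviate together (r -0.293 to -0.087), and all of these had limit values on opposite sides. The members and gene lists were chosen with earlier results of these data known. Genes named are the members, every measured gene of the glucosinolate and sulfur lists, 5 neighbours on each side, and by Pearson's r the 5 most alike and 3 most opposite named loci with at least 10 shared arrays. A planned list of the dioxygenase family was not used, since the gene table holds no product descriptions. Sequences are not printed, and coordinates are left out because the build behind the array design is not given.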

Additional observations from a re-analysis of the deposited data

Results flagged for a closer look

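A sample far from the others of its group was found in 3 of 42 groups of 4 arrays, where chance flags about 1 in 20. For AOP3 at 72 h the gap of replicate 1, at -2.90, to the next array was 0.843 of the range, and without it the mean was -3.68. For AT2G31790 at 4 h replicate 4, at -0.34, stood apart by 0.859 of the range, and for APS3 at 72 h replicate 3, at 0.28, by 0.874.

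The response differed between time points for 4 of the glucosinolate and sulfur genes named, by the test of the difference in limma. GSTU20 changed by -1.13 between 4 and 12 h (adjusted p = 0.023), UGT74B1 by -1.56 (adjusted p = 0.014) and AT2G31790 by -0.81 (adjusted p = 0.037), and AT1G04770 by 1.38 between 12 and 72 h (adjusted p = 0.0030). The call for AT1G04770 held under all 21 alternatives that give this difference (adjusted p up to 0.027), and the other 3 were lost under 8, 6 and 10 of 21. A replicate block was among these for UGT74B1 (0.060) and AT2G31790 (0.086).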

How the results depend on the processing

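AOP3 and AT2G25450 kept their sign at each time point under all 21 alternatives run for them. Each had the same sign on all 12 arrays, so leaving out arrays could not turn it. Leaving out an array of another time point could not move a mean at all. Only quantile normalisation moved AOP3 or AT2G25450 by more than 1 SD, with AOP3 at -3.81 at 12 h and AT2G25450 at 2.06 at 4 h and 3.63 at 12 h. The cause was not tested. Leaving out 1 array gave -1.44 to -1.21, -3.36 to -3.07 and -3.68 to -3.39 for AOP3 and 1.32 to 1.66, 2.77 to 3.04 and 1.5 to 1.87 for AT2G25450 at 4, 12 and 72 h. The glucosinolate genes past the threshold then numbered 2 to 4, 4 to 4 and 4 to 6, and all features 1330 to 2733, 1739 to 3904 and 2449 to 3843. With each time point fitted alone 1 glucosinolate gene passed at 72 h, and 1145, 4801 and 614 features passed. Array weights gave 4453 features at 4 h and 6820 at 12 h, against 2009 and 2867. Without both 4 h arrays whose limit values lay on the unusual side, an alternative chosen after seeing the data, 1071 features passed at 4 h. With a replicate block 2, 4 and 5 glucosinolate genes and 1664, 2396 and 3073 features passed at 4, 12 and 72 h. For the difference between 4 and 12 h, the block left 157 features of 441 and 1 glucosinolate gene of 3. For that between 12 and 72 h, it left 327 features of 750 and 0 of 0. That the replicate numbers pair the arrays was not shown for either difference. The alternatives for the dioxygenase family were not run, for want of the list.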
